A study of Sus scrofa with 6 samples.

Results

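The NRF2 axis was followed here through 10 genes: the transcription factor NFE2L2 (NRF2), its inhibitor KEAP1, the glutathione enzymes GCLC, GCLM, GSS and GSR, the thioredoxin genes TXN, TXNRD1 and SRXN1, and the quinone reductase NQO1. They were taken by gene name from the deposited expression values, which hold 31908 Ensembl pig gene IDs. Each name matched 1 gene ID, and the 10 IDs had 41 of the 63041 listed rows. The cells were IPEC-J2, a pig line established from jejunal epithelium and not made by transformation. Its RNA was compared in 6 libraries, 3 from cells given PBS (CON group) and 3 from cells given 50 μM chenodeoxycholic acid (CDCA group), a primary bile acid, both for 24 h. All cells were of this line, and no other treatment was labelled. The study calls the libraries of a group biological replicates. Whether each came from its own culture is not given in the sources used here, and p-values measure the spread between these libraries. The 10 genes were chosen with their CDCA against CON difference already known, and their values are therefore a description, given without p-values.

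NRF2 is a transcription factor that binds antioxidant response elements together with a small MAF protein. In unstressed cells KEAP1 holds it and passes it to a CUL3 ubiquitin ligase for degradation, and electrophiles or oxidants that modify KEAP1 cysteines let NRF2 build up. Its activity is thus set largely at the protein level, which RNA does not show. Its known targets make glutathione, keep glutathione and thioredoxin reduced with NADPH, and clear quinones, and in the intestinal epithelium they guard against oxidants and reactive compounds from the lumen.

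The values are TPM, the share of a library's transcripts scaled to a fixed total, which the authors obtained with RSEM and which allow for transcript length, so levels of different genes can be set side by side. A gene's value is the sum of its listed rows, which appear to be its transcripts but carry no transcript ID. The listed TPM summed to between 351770 and 366073 per library, where a whole library would sum to 1000000, and as the values come without counts per gene, no counting error was computed for them. PRDX1, a cytosolic peroxiredoxin that cells usually express strongly, had 0, 0 and 3.82 TPM in the CON libraries and 0, 2.53 and 0 TPM in the CDCA libraries. The 13 mtDNA-encoded mRNAs made up 13.8% to 15.0% of all listed TPM in the CON libraries and 2.90% to 3.45% in the CDCA libraries, and as TPM are shares of a library, the results were also computed without them. The 7 epithelial markers found summed to 647 to 668 TPM in CON and to 1210 to 1350 TPM in CDCA. Most of the difference was that of CLDN4, a tight junction claudin, which rose from 225 ± 11 to 806 ± 51 TPM (SD, n = 3 each; log2 fold change 1.84, limma FDR 3.7e-06). EPCAM, KRT18 and TJP1 also had an FDR under 0.05 upward (0.39, 0.19 and 0.22), KRT8 was at 226 ± 10 and 208 ± 17 TPM, and with totals without the mtDNA-encoded mRNAs the limma FDR was 0.41 for KRT18, 0.38 for TJP1 and 0.0067 for KRT8 (log2 fold change -0.27). With the highest row in place of the sum it was 0.086 for TJP1. CDH1 and VIL1 were near 0 (at most 0.533 TPM in a group mean). The 6 fibroblast markers summed to between 0.930 and 1.82 TPM over all libraries, the 4 endothelial ones to between 1.90 and 2.74 TPM, and the leukocyte marker PTPRC was at or near 0. The 6 immune markers summed to 1.69 to 2.99 TPM in CON and to 7.67 to 8.55 TPM in CDCA, mainly through CD68, a protein also known from lysosomes, at 0.0867 TPM in CON and 4.84 TPM in CDCA. CD68 and PTPRC were named after their values were seen. The part of these markers in the results was not tested. In such bulk RNA, fewer cells of a kind cannot be told apart from less RNA per cell.

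All 10 genes were listed higher in CDCA, and for each of them every CDCA library lay above every CON library. Of the 8708 genes that averaged 1 TPM or more, 33.7% stood apart in the same direction and 27.8% in the opposite one. The largest difference among the well expressed members was that of SRXN1 (3.25 times) and the smallest that of KEAP1 (1.22 times). A ratio of mean TPM over 1.5 was found for 8 of the 10, and no share of all genes was computed for this limit. Differences over all genes were tested by limma on log2(TPM + 1), and calls required an adjusted p (FDR, Benjamini-Hochberg) under 0.05 together with a log2 fold change beyond 1 or -1. By this rule SRXN1, GCLC and TXNRD1 were called higher, 3 of the 10, against 3.51% of all tested genes. The FDR limit alone was met upward by 10 of the 10, against 29.3% of all tested genes, and by 8, without KEAP1 and TXN, both with totals without the mtDNA-encoded mRNAs and with the highest row of each gene. Since the same contrast chose the genes, nothing is read from these counts.

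**Figure D1:**
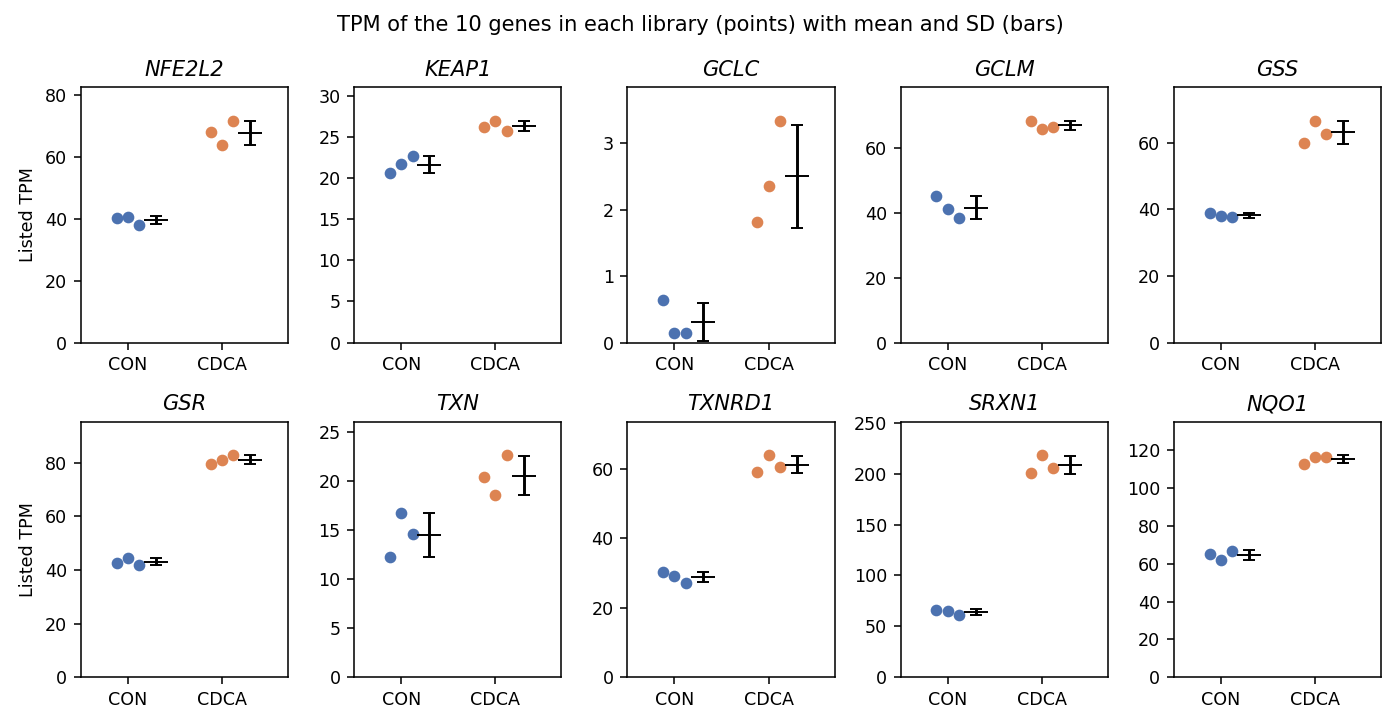
Listed TPM (y axis, linear, from 0, one scale per gene) of the 10 NRF2 axis genes in the 3 CON and the 3 CDCA libraries; points are libraries, black bars are the group mean and SD. In every panel the 3 CDCA points sit above the 3 CON points, widely for SRXN1 (3.25 times) and narrowly for KEAP1 (1.22 times) and TXN (1.41 times).

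NFE2L2 (ENSSSCG00000015987), which encodes NRF2 itself, had 40.25, 40.61 and 38.04 TPM in the CON libraries and 67.97, 63.74 and 71.54 TPM in the CDCA libraries. The means were 39.6 ± 1.4 TPM (SD, n = 3) and 67.8 ± 3.9 TPM (SD, n = 3), a ratio of 1.71 and a log2 fold change of 0.76 (SE 0.05). The lowest CDCA library was 1.57 times the highest CON library, so the gap was far wider than the spread inside either group.

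KEAP1 (ENSSSCG00000023667), the adaptor that targets NRF2 for degradation, had 20.56, 21.69 and 22.63 TPM in the CON libraries and 26.18, 26.96 and 25.74 TPM in the CDCA libraries. Its mean went from 21.6 ± 1.0 to 26.3 ± 0.62 TPM (SD, n = 3 each), a log2 fold change of 0.27 (SE 0.05), the smallest of the 10. The groups stood apart by a narrow margin, with the lowest CDCA library at 1.14 times the highest CON library. Within a library, the NFE2L2 level was 1.68 to 1.96 times the KEAP1 level in CON and 2.36 to 2.78 times in CDCA.

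The rows behind the KEAP1 sum differed from each other, and only the second stood apart between the groups. Its row with the highest mean level had 6.99, 9.41 and 9.99 TPM in the CON libraries and 8.17, 8.08 and 7.50 TPM in the CDCA libraries, groups that overlapped, with a mean ratio of 0.900. The second row was at 4.61, 5.59 and 5.90 TPM in the CON libraries and 8.84, 9.85 and 7.71 TPM in the CDCA libraries, a ratio of 1.64 with no overlap. The 2 remaining rows varied widely inside each group, the lowest from 0.550 to 6.64 TPM among the CON libraries, while the sum over rows varied by 4.79% (SD over mean) in CON. With the highest row in place of the gene sum, the log2 fold change of KEAP1 was -0.12.

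Glutamate-cysteine ligase, the enzyme of the first and rate-limiting step of glutathione synthesis, is made of the catalytic subunit GCLC and the modifier subunit GCLM. GCLM (ENSSSCG00000037549) had 45.30, 41.20 and 38.30 TPM in the CON libraries and 68.41, 65.89 and 66.40 TPM in the CDCA libraries. Its mean went from 41.6 ± 3.5 to 66.9 ± 1.3 TPM (SD, n = 3 each), a ratio of 1.61 and a log2 fold change of 0.68 (SE 0.06). Both of its listed rows shared in this, with ratios of 1.63 and 1.59, and the higher row held 54.4% of the gene's TPM in CON and 54.9% in CDCA.

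GCLC (ENSSSCG00000001488) was listed near 0, with 0.640, 0.150 and 0.140 TPM in the CON libraries and 1.81, 2.35 and 3.34 TPM in the CDCA libraries. Its 2 rows came to 0.00364 to 0.0141 times the GCLM level in CON and to 0.0265 to 0.0503 times in CDCA, although the 2 subunits work as a pair. As for PRDX1, the value covers the listed rows only. The ratio of mean TPM was 8.06, or 17.2 without CON replicate 1, and the log2 fold change was 1.42 (SE 0.22) with a pseudocount of 1 TPM and 2.83 with 0.1 TPM. The gene reached a mean of 1.41 TPM over the 6 libraries through its CDCA values alone, so it could enter the test only because it was higher there.

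GSS (ENSSSCG00000007287), glutathione synthetase, adds the glycine in the second step. It had 38.95, 37.89 and 37.67 TPM in the CON libraries and 59.83, 66.58 and 62.66 TPM in the CDCA libraries. The means were 38.2 ± 0.68 and 63.0 ± 3.4 TPM (SD, n = 3 each), a ratio of 1.65 and a log2 fold change of 0.71 (SE 0.05). GCLM and GSS kept nearly the same proportion to each other: GCLM was 1.02 to 1.16 times GSS in CON and 0.990 to 1.14 times in CDCA, ranges that overlapped.

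GSR (ENSSSCG00000015844), the reductase that regenerates glutathione from its oxidised form with NADPH, had 42.69, 44.62 and 41.88 TPM in the CON libraries and 79.40, 81.08 and 82.74 TPM in the CDCA libraries. Its mean went from 43.1 ± 1.4 to 81.1 ± 1.7 TPM (SD, n = 3 each), a ratio of 1.88 and a log2 fold change of 0.90 (SE 0.04). This was the largest difference among the glutathione enzymes other than GCLC. The 2 main rows of GSR had ratios of 1.90 and 1.85 and split the gene almost evenly in both groups.

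TXN (ENSSSCG00000005453), the small disulfide reductase thioredoxin, was lowest of the 10 after GCLC. It had 12.27, 16.77 and 14.58 TPM in the CON libraries and 20.38, 18.64 and 22.65 TPM in the CDCA libraries. Its mean went from 14.5 ± 2.3 to 20.6 ± 2.0 TPM (SD, n = 3 each), a ratio of 1.41 and a log2 fold change of 0.48 (SE 0.12). The lowest CDCA library was 1.11 times the highest CON library, the narrowest gap among the 10 genes. Its main row, at 9.29 to 14.81 TPM in CON and 14.37 to 15.69 TPM in CDCA, overlapped between the groups, whereas the second row went from 1.81 ± 0.50 to 4.51 ± 1.2 TPM (SD, n = 3 each).

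TXNRD1 (ENSSSCG00000000843), the cytosolic selenoenzyme that reduces thioredoxin with NADPH, had 30.20, 29.13 and 27.17 TPM in the CON libraries and 59.17, 63.88 and 60.43 TPM in the CDCA libraries. Its mean went from 28.8 ± 1.5 to 61.2 ± 2.4 TPM (SD, n = 3 each), a ratio of 2.12 and a log2 fold change of 1.06 (SE 0.05). The main row was at 20.65, 19.07 and 19.19 TPM in the CON libraries and 43.30, 43.21 and 43.25 TPM in the CDCA libraries, a ratio of 2.20. TXNRD1 was 1.74 to 2.46 times TXN in CON and 2.67 to 3.43 times in CDCA. It also gained on GSR, which was 1.41 to 1.54 times TXNRD1 in CON and 1.27 to 1.37 times in CDCA.

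SRXN1 (ENSSSCG00000023298), sulfiredoxin, repairs peroxiredoxins whose active cysteine has been over-oxidised. Its single row had 65.77, 65.58 and 61.00 TPM in the CON libraries and 200.66, 218.13 and 205.90 TPM in the CDCA libraries. The mean went from 64.1 ± 2.7 to 208 ± 9.0 TPM (SD, n = 3 each), a ratio of 3.25 and a log2 fold change of 1.68 (SE 0.05). By log2 fold change it ranked 81 from the top among the 8708 tested genes. SRXN1 held 17.5% to 18.2% of the TPM summed over the 10 genes in CON and 28.7% to 30.1% in CDCA. Relative to NFE2L2 it went from at most 1.63 times in CON to 2.88 to 3.42 times in CDCA.

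NQO1 (ENSSSCG00000002754), which reduces quinones by a transfer of 2 electrons and is a textbook NRF2 target, had 64.93, 62.10 and 66.85 TPM in the CON libraries and 112.67, 116.30 and 116.62 TPM in the CDCA libraries. Its mean went from 64.6 ± 2.4 to 115 ± 2.2 TPM (SD, n = 3 each), a ratio of 1.78 and a log2 fold change of 0.82 (SE 0.04). Unlike SRXN1, it kept its proportion to NFE2L2, at 1.53 to 1.76 times in CON and 1.63 to 1.82 times in CDCA. The main row of NQO1 had a ratio of 1.64, and the second, at 0.830, 4.71 and 6.29 TPM in the CON libraries and 7.50, 20.52 and 18.04 TPM in the CDCA libraries, had one of 3.89 with a wide spread.

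**Figure D2:**
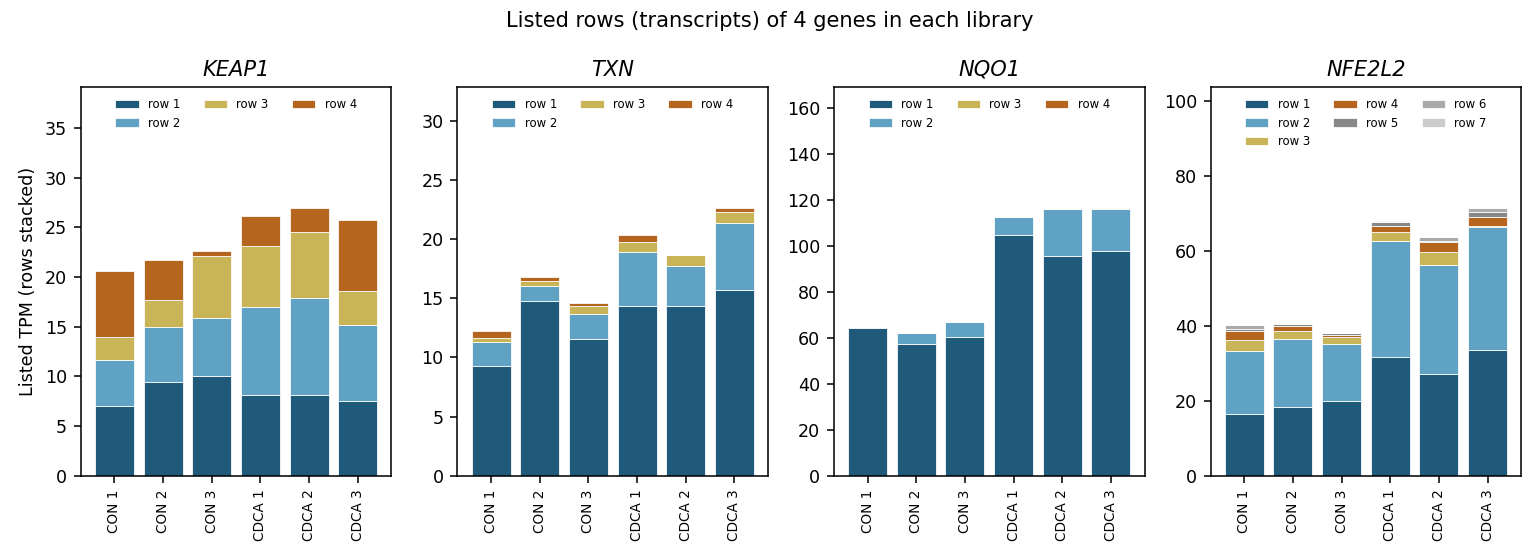
Listed TPM (y axis, from 0) of KEAP1, TXN, NQO1 and NFE2L2 in each of the 6 libraries, with the listed rows of a gene stacked in order of their mean level. The top of a column is the gene's sum; for KEAP1 the rows change places between libraries of 1 group while the sum stays between 20.56 and 22.63 TPM in CON and between 25.74 and 26.96 TPM in CDCA.

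Of the 10 genes, 9 had more than 1 row. Over all of them, 23 of the 41 rows reached a mean of 1 TPM in a group; in 17 of them every CDCA library lay above every CON library, in 6 the groups overlapped and in 0 the order was the reverse. Of all 13275 listed rows at that level, 30.2% stood apart upward, and since the genes were chosen on this contrast nothing is read from the count. The 2 main rows of NFE2L2 had ratios of 1.69 and 1.85, and its row 3, with 2.77, 2.28 and 1.95 TPM in the CON libraries and 2.62, 3.36 and 0.19 TPM in the CDCA libraries, had one of 0.881 within overlapping groups. With the highest row alone, the groups stood apart for 8 of the 10 genes, the exceptions being KEAP1 and TXN, against 31.7% of all genes taken by their highest row.

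The order of the levels changed at its top. In CON, NQO1 (64.6 TPM) and SRXN1 (64.1 TPM) were highest with overlapping ranges. Below them came GSR, GCLM, NFE2L2 and GSS, between 43.1 and 38.2 TPM, each overlapping the next, and then TXNRD1, KEAP1, TXN and GCLC, each apart from its neighbours. In CDCA, SRXN1 (208 TPM) stood above NQO1 (115 TPM), which stood above GSR (81.1 TPM). NFE2L2, GCLM, GSS and TXNRD1 lay together between 67.8 and 61.2 TPM, each overlapping the next, and KEAP1, TXN and GCLC were again lowest, in that order. TXNRD1, which lay apart below GSS in CON, thus overlapped it in CDCA.

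The TPM of GCLC, GCLM, GSS and GSR summed to 118 to 128 in CON and to 209 to 216 in CDCA, a ratio of means of 1.73. That of TXN, TXNRD1 and SRXN1 summed to 103 to 111 in CON and to 280 to 301 in CDCA, a ratio of 2.70. Over all 10 genes the sum went from 357 ± 7.2 to 713 ± 14 TPM (SD, n = 3 each), and without SRXN1 from 292 ± 4.5 to 504 ± 8.2 TPM. In CON the glutathione enzymes thus outweighed the thioredoxin genes in each library, and in CDCA the order was the reverse in each library. This reversal rested on SRXN1, which had 64.1 TPM in CON and 208 TPM in CDCA. Summed without it, TXN (14.5 TPM in CON, 20.6 TPM in CDCA) and TXNRD1 (28.8 and 61.2 TPM) stayed below the glutathione enzymes in each library.

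**Figure D3:**
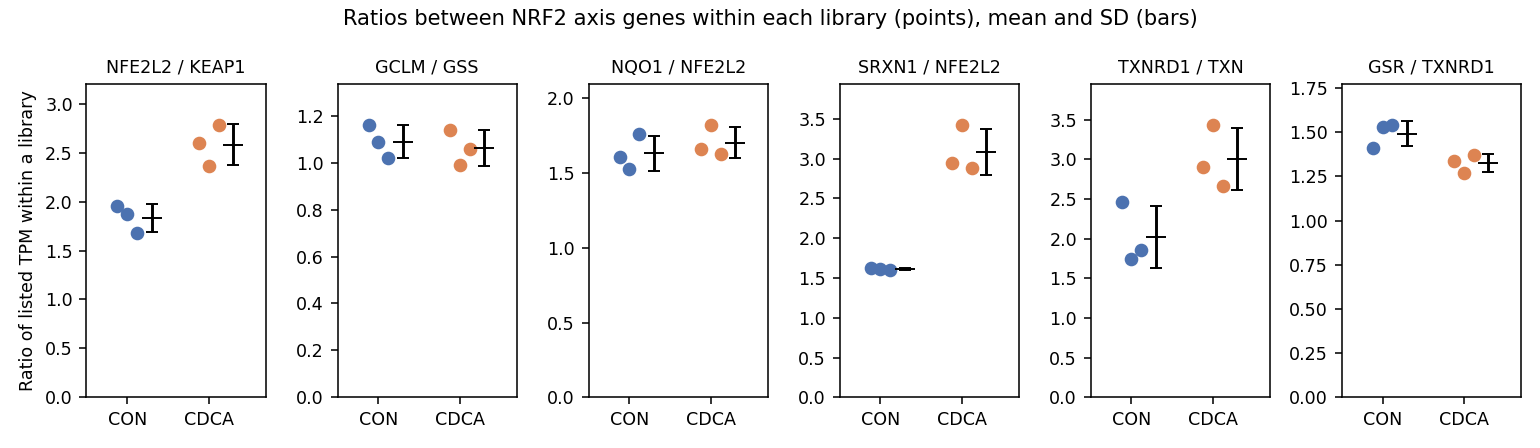
Ratio of the listed TPM of 2 genes within each library (y axis, linear, from 0), for 6 pairs; points are the 3 CON and the 3 CDCA libraries, black bars the group mean and SD. The ratios of GCLM to GSS and of NQO1 to NFE2L2 overlap between the groups, SRXN1 to NFE2L2 goes from about 1.62 to 3.08, and GSR to TXNRD1 is lower in CDCA.

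With library totals taken without the mtDNA-encoded mRNAs, the median log2 fold change of all genes shifted by -0.13, from 0.05 to -0.08, and the difference of each member shrank with it. The log2 fold change was then 1.53 for SRXN1, 0.91 for TXNRD1, which was no longer called, 0.61 for NFE2L2 and 0.12 for KEAP1. TXN overlapped between the groups, with 12.9 to 17.6 scaled TPM in CON and 17.3 to 21.6 in CDCA, and the other 9 genes stayed apart. The share of all genes that stood apart under these totals was not computed, and nothing is read from this count. Relative to the median of all genes the members hardly moved: NFE2L2 lay 0.71 above it on the log2 scale as listed and 0.69 above it without the mtDNA mRNAs, and KEAP1 0.22 and 0.21.

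Other genes of the pathway were taken from 6 lists with 110 genes in all, none of them a member. Of their 73 tested gene IDs, 14 were called higher and 1 lower in CDCA, where 3.51% of all tested genes were called higher and 3.9% lower. The lists were written with earlier results of these data known, and they are described by their counts.

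Among 10 tested partners and regulators of NRF2, 3 were called higher and none lower, with a median log2 fold change of 0.48 against 0.05 for all tested genes. The median was 0.29 where low genes were kept in. An FDR under 0.05 upward was met by 7 of the 10 and downward by 0, where 29.3% and 23.9% of all tested genes did. NFE2L3, BACH1, BACH2 and MAFG, named after their values were seen, averaged under 1 TPM and were not tested. NFE2L3 went from 1.48 ± 0.15 to 0.263 ± 0.058 TPM, and BACH1 from 0.21 ± 0.087 to 0.837 ± 0.43 TPM (SD, n = 3 each). SQSTM1 (p62), a cargo receptor of autophagy that binds KEAP1, rose from 7.20, 5.06 and 5.0 TPM to 38.02, 51.88 and 27.88 TPM (log2 fold change 2.55, SE 0.23, limma FDR 0.00017). MAFF, one of the small MAF partners, rose from 4.01 ± 0.54 to 15.8 ± 1.1 TPM (SD, n = 3 each), with a limma FDR of 2.8e-05. NFE2L1, a related factor best known for proteasome genes, rose from 27.1 ± 2.5 to 63.5 ± 0.60 TPM (log2 fold change 1.20). MAFK, CUL3, BTRC and SYVN1 had an FDR under 0.05 upward with a log2 fold change under 1, between 0.18 and 0.82, while RBX1, GSK3B and DPP3 had an FDR over 0.05; these 7 were named after their values were seen. With totals taken without the mtDNA-encoded mRNAs, the limma FDR was 0.086 for MAFK, 0.57 for CUL3 and 0.012 for RBX1 (log2 fold change -0.28). With the replicate number as a block, it was 0.067 for BTRC and 0.082 for CUL3.

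Genes of glutathione supply and breakdown included the cystine carrier and the enzymes on either side of glutathione. Of 11 tested, 5 were called higher and none lower, and the median was 0.96, against 0.05 with no filter on low values and 1.49 with a mean of at least 5 TPM. SLC7A11, the cystine carrier that feeds glutathione synthesis, rose from 8.23, 7.25 and 6.70 TPM to 65.95, 62.79 and 66.60 TPM (log2 fold change 2.98, SE 0.07, limma FDR 2.5e-06), and its partner subunit SLC3A2 rose from 52.3 ± 1.4 to 190 ± 13 TPM (SD, n = 3 each). CTH, which makes cysteine from cystathionine, rose from 22.9 ± 2.8 to 91.6 ± 2.6 TPM. The same list holds CHAC1, which cleaves glutathione and rose from 6.15 ± 1.2 to 51.8 ± 2.3 TPM (log2 fold change 2.90), and OPLAH, which returns the resulting 5-oxoproline to glutamate and rose from 16.0 ± 0.42 to 36.5 ± 1.3 TPM. OPLAH was not called with totals without the mtDNA-encoded mRNAs (log2 fold change 0.99). SLC7A11, SLC3A2, CTH and CHAC1 are also known targets of the stress factor ATF4. An FDR under 0.05 downward with a smaller change was found for 3 of the 11, where 23.9% of all tested genes had an FDR under 0.05 downward. These, named after their values were seen, were GGCT (-0.58), the exporter ABCC1 (-0.50) and SLC25A39 (-0.26).

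Enzymes that use glutathione were the next list. Of 13 tested, 0 were called in either direction by limma, 7 had an unadjusted p under 0.05 (59.0% of all tested genes), 3 had an FDR under 0.05 upward and 4 downward, where 29.3% and 23.9% of all tested genes did. The median was -0.08, with no filter on low values 0.02, and with totals without the mtDNA-encoded mRNAs -0.23. GPX4, which reduces lipid peroxides in membranes, had 78.95, 80.62 and 76.08 TPM in the CON libraries against 49.18, 53.44 and 47.50 TPM with CDCA (log2 fold change -0.64, limma FDR 0.00012). GSTA4, which conjugates 4-hydroxynonenal, went from 33.2 ± 3.8 to 17.7 ± 0.98 TPM (log2 fold change -0.87), short of the limit for a call, and -1.02 with totals without the mtDNA-encoded mRNAs, where it was called. GSTZ1 was at 0.867 ± 0.27 and 1.66 ± 0.67 TPM (log2 fold change 0.49, limma FDR 0.11), with log2 fold changes of 0.32 (limma FDR 0.28) without CDCA replicate 1 and 0.70 (limma FDR 0.023) without CDCA replicate 3. Like GCLC, it averaged under 1 TPM in CON and entered the test only through its CDCA values.

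In the rest of the thioredoxin system, 15 genes were tested, 1 was called higher and 1 lower, and the median was -0.09, or -0.20 with totals without the mtDNA-encoded mRNAs and -0.01 without CDCA replicate 3. TXNL1, a thioredoxin-like protein linked to the proteasome, rose from 1.91 ± 0.098 to 5.74 ± 0.40 TPM (SD, n = 3 each; log2 fold change 1.21). MSRB3, a methionine sulfoxide reductase, fell from 40.3 ± 1.9 to 19.6 ± 0.90 TPM with a log2 fold change of -1.0, at the limit, and was not called without CON replicate 1 (-0.97) or 2, or without CDCA replicate 2 or 3 (-0.99 each). NXN, nucleoredoxin, had a log2 fold change of 0.54 (limma FDR 0.0052). The mitochondrial reductase TXNRD2 went the other way from TXNRD1, from 6.79 ± 0.67 to 4.47 ± 0.70 TPM (log2 fold change -0.51, limma FDR 0.0096). PRDX4 and PRDX5 had log2 fold changes of -0.31 and -0.21 with an FDR under 0.05, and PRDX6, at 69.3 ± 13 and 67.4 ± 4.6 TPM, had one of -0.03 (limma FDR 0.87). TXNRD2 and the peroxiredoxins were named after their values were seen. Of the 15 genes, 3 had an FDR under 0.05 upward and 5 downward, where 29.3% and 23.9% of all tested genes did.

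Among 22 tested genes of a list of other NRF2 targets, 6 were called higher and none lower, with a median of 0.60, or 0.24 with no filter on low values. Besides SLC7A11 these were FTL, the ferritin light chain, from 968 ± 36 to 3910 ± 290 TPM (SD, n = 3 each; log2 fold change 2.01, limma FDR 3.3e-06), and HMOX1, heme oxygenase, from 13.4 ± 1.4 to 53.2 ± 4.7 TPM (1.91). PTGR1, a reductase of reactive alkenals, rose from 25.5 ± 3.6 to 97.5 ± 7.0 TPM, the epoxide hydrolase EPHX1 from 1.33 ± 0.31 to 4.96 ± 0.78 TPM, and ABHD4, an N-acyl phospholipid hydrolase, from 2.48 ± 0.25 to 6.79 ± 1.1 TPM. With the highest listed row in place of the sum, ABHD4 had a log2 fold change of 0.53 and was not called. A further 8 had an FDR under 0.05 upward without reaching the limit, 14 of the 22 with the called genes, and ABCC1 had one downward, where 29.3% and 23.9% of all tested genes did; CAT, catalase, was at 15.1 ± 0.59 and 16.5 ± 0.49 TPM (log2 fold change 0.12, limma FDR 0.10, or -0.03 with totals without the mtDNA-encoded mRNAs) and was named after its value was seen.

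TXNRD1 is a selenoprotein, and the genes that insert selenocysteine were taken as a list of their own. Of 5 tested, 0 were called in either direction by limma, 2 had an unadjusted p under 0.05, as did 59.0% of all tested genes, and the median was 0.00, with a range of -0.21 (without CON replicate 3) to 0.46 (genes averaging 5 TPM or more) among the alternatives. EEFSEC, the elongation factor for selenocysteine, went from 3.50 ± 0.23 to 1.88 ± 0.42 TPM (SD, n = 3 each; log2 fold change -0.66, limma FDR 0.0059), and SECISBP2, which binds the selenocysteine element of the mRNA, from 6.24 ± 0.81 to 8.95 ± 0.70 TPM (0.46, limma FDR 0.0090). With the highest row in place of the sum, EEFSEC had a log2 fold change of -0.33 (limma FDR 0.22) and SECISBP2 a limma FDR of 0.052. SCLY, the selenocysteine lyase, was at 2.84 ± 0.36 and 2.19 ± 0.43 TPM (limma FDR 0.13, or 0.048 with totals without the mtDNA-encoded mRNAs).

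**Figure D4:**
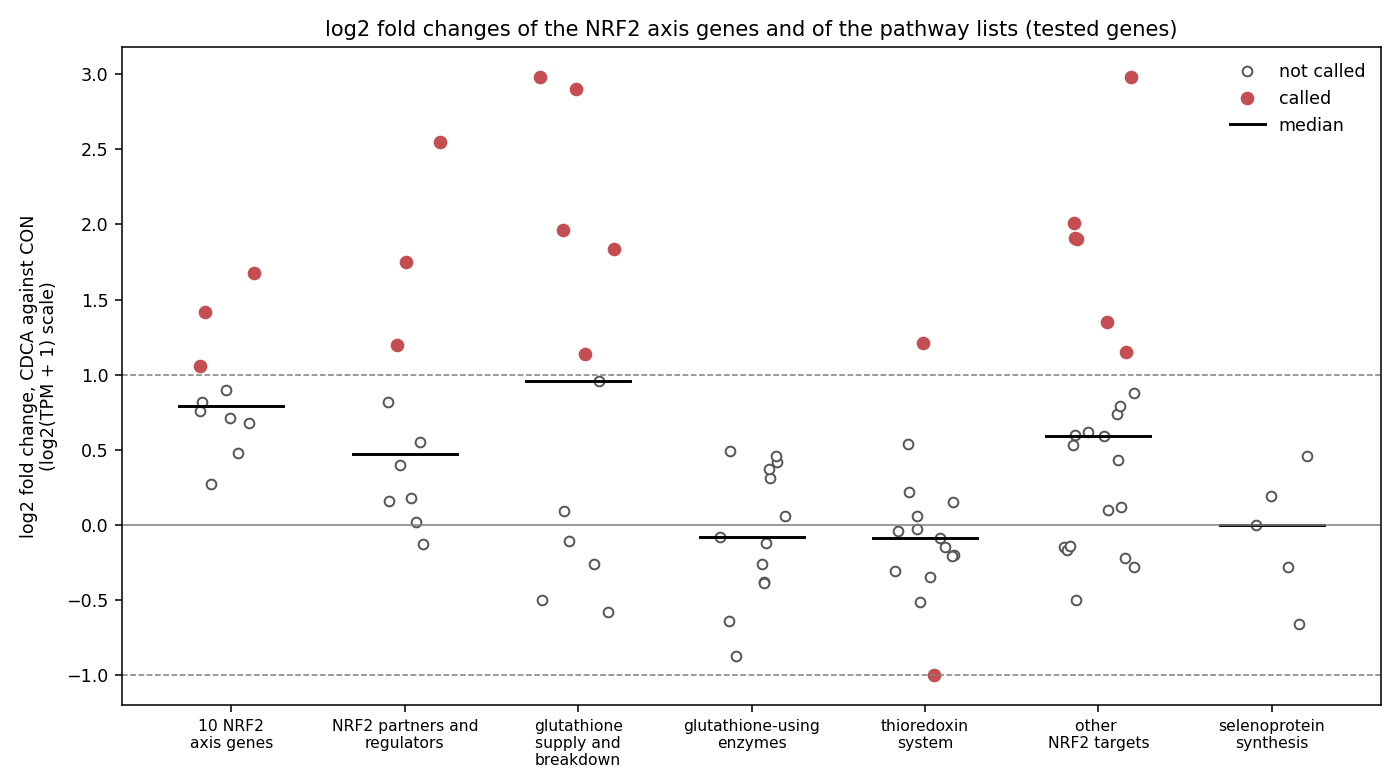
log2 fold change of CDCA against CON on the log2(TPM + 1) scale (y axis) for the 10 NRF2 axis genes and for the tested genes of 6 pathway lists; filled points are called (limma FDR under 0.05 and beyond the dashed lines at 1 and -1), open points are not, and black lines are medians. The medians of supply and breakdown (0.96) and of other targets (0.60) lie above 0, and those of glutathione-using enzymes (-0.08) and the thioredoxin system (-0.09) lie near 0; the 10 genes were chosen on this contrast.

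The genes whose pattern lay nearest to that of a member were sought by the root mean square difference of log2(TPM + 1), centred on the mean over the 6 libraries. For NFE2L2 these were BET1 (0.0212) and S100A10 (0.0282), nearer than the nearest member, GCLM (0.0798). For NQO1 they were GLMP (0.0216) and TRIM16 (0.0275), the latter also in the list of NRF2 targets, whose mean was 4.44 ± 0.30 TPM without and 8.40 ± 0.20 TPM with CDCA (SD, n = 3 each). For SRXN1 they were SARS1 (0.0480) and DESI1 (0.0532), and its nearest member, GCLC, was at 0.273. For TXNRD1 they were KCMF1 (0.0442) and PLEKHO1 (0.0570), followed among the members by GSR (0.0955).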

How the data were processed

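RNA from IPEC-J2 cells given PBS or 50 μM CDCA for 24 h was sequenced by the authors on an Illumina instrument in 3 libraries a group, grouped here by the sample labels. The authors deposited TPM values obtained with RSEM, several rows per gene ID, without read counts. The submitters' processing notes also name Bowtie 0.12.2 and the mouse build mm10, whose role for pig libraries is not given; the pig annotation release is not given in the sources used here, so no coordinates are printed. Rows were summed per gene ID. Symbols came from the deposited table, and for IDs without one from a table of Ensembl IDs; 17501 IDs had a symbol.

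The 8708 genes that averaged 1 TPM or more were compared by limma 3.58.1 under R 4.3.3, with its trended eBayes step, on log2(TPM + 1), with Benjamini-Hochberg adjustment and limits of FDR 0.05 and log2 fold change 1. The authors used edgeR, which needs counts. On simulated data the steps gave an FDR under 0.05 to 57.5%, 96.5% and 99.5% of 200 genes changed by 0.5, 1.5 and 3 on the log2 scale. The changed genes were drawn without the lowest expressed ones, and far fewer were changed than passed the FDR limit in the data. These shares therefore do not carry over to the data or to low genes such as GCLC.

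The 10 genes, the lists and the tests were chosen with earlier results of these data known. Named genes were the members, the called genes and the 3 largest changes of each list, the 2 genes nearest to each of NFE2L2, NQO1, SRXN1 and TXNRD1, and epithelial markers; others are marked as named after their values were seen. Alternatives were a pseudocount of 0.1 TPM, no filter or a mean of 5 TPM, totals without mtDNA-encoded mRNAs, a median ratio scaling, the highest row, the replicate number as a block and each library left out; a rescaling to 1000000 was added after seeing the data.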

Additional observations from a re-analysis of the deposited data

How the results depend on the processing

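Among all genes, calls numbered 306 upward and 340 downward in CDCA. The counts called higher and lower were 509 and 505 with a pseudocount of 0.1 TPM, 197 and 238 with a mean of at least 5 TPM (fewer genes tested) and 523 and 481 with the listed TPM rescaled to 1000000, which both lets more genes be tested (10947) and makes the pseudocount smaller relative to the values. With totals without the mtDNA-encoded mRNAs, 221 were called higher and 462 lower. Leaving out single libraries, 305 to 327 were called higher and 337 to 359 lower, and SRXN1, GCLC and TXNRD1 stayed called. Since the same contrast chose these genes, and GCLC could be tested only because it was higher in CDCA, nothing is read from this. TXNRD1 was not called with totals without the mtDNA mRNAs (0.91), and KEAP1 changed sign with the highest row (-0.12). KEAP1 and TXN missed the FDR limit under both of these settings. Calls in the list of glutathione-using enzymes went from 0 to 1 (GSTA4, -1.02) with totals without the mtDNA mRNAs. Those in the thioredoxin system went from 2 to 1 with a mean of at least 5 TPM, which removed TXNL1, and were 1 to 2 with each library left out: without CON replicate 1 or 2 or CDCA replicate 2 or 3, MSRB3 (-0.97 to -1.0) was not called. OPLAH was not called with totals without the mtDNA mRNAs (0.99). The replicate number as a block gave 309 called higher and 343 lower and changed no call among the members and the genes named with a fit, while BTRC and CUL3, under the fold limit in both fits, missed the FDR limit. Same-numbered libraries did not deviate together (r across genes of -0.0916 to -0.0353), and 0 of 3 CON libraries correlated best with its own number. The filter of a mean of at least 5 TPM also removed GCLC, EPHX1 and ABHD4, leaving 2 members called and 4 calls among other NRF2 targets. Without counts per gene, no counting error could be computed for low values such as those of GCLC.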
